A study of Mus musculus with 74 samples.

Results

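The 10 genes described here are a part of the adhesion machinery, read in single pro-epicardial cells of the mouse. They are the cadherins Cdh1, Cdh2, Cdh3 and Cdh11, the catenins Ctnna1 and Ctnnd1, and the desmosome genes Jup, Dsp, Pkp2 and Dsg2. They were chosen by name from 30323 gene identifiers in the table, and all 10 were found there. The questions asked of them were which cadherin is found in cells that nearly lack Cdh1, and how desmosome transcripts vary with Actc1, which encodes cardiac actin, and with Lhx9, a LIM homeobox factor of the mesothelium.

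The series holds 74 single cells in 1 group, with no treatment and no control. The cells were sorted from dissected pro-epicardial organs of C57BL/6 embryos at embryonic day 9.5. All embryos carried Tbx18Cre and the mTmG membrane reporter, so the sort was limited to cells in which the Tbx18 promoter had driven Cre. Libraries were full-length (SMART-Seq), and the deposited values are estimated counts per gene.

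Classical cadherins join neighbouring cells through their outer domains, and their tails are tied to actin through catenins. Desmosomes are another kind of junction in which desmogleins and desmocollins are linked through plakoglobin, plakophilins and desmoplakin to intermediate filaments. In the heart, both kinds of protein come together in the intercalated disc between muscle cells, whereas the pro-epicardium is a mesothelial epithelium that gives rise to the epicardium.

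No embryo is named in the labels. All 74 cells were therefore treated as a single sample, without any test between them. Errors are SD over cells, and intervals are exact (Clopper-Pearson) 95% intervals that cover the counting of cells only. Total counts ran from 216177 to 2618538 per cell, with a median of 849718. Detection of a gene means at least 5 counts in that cell. The 3 ranges of cells were set from Actc1 and Lhx9. Actc1-high cells had at least 1000 CPM of Actc1, CPM being counts scaled to the total of each cell, and numbered 18. The other 56 cells were divided into 33 in which Lhx9 was detected and 23 in which it was not. These are ranges and not cell types: 5 cells lay between 500 and 1000 CPM of Actc1 and 5 between 1000 and 2000 CPM. For Lhx9, 9 cells had 1 to 4 counts and 0 cells had 5 to 10. Among the Actc1-high cells, 1 (cell 3) also had Lhx9 detected, at 27.7 CPM. Median totals were 817114 counts in Actc1-high, 788465 in Lhx9-detected and 1173021 in Lhx9-undetected cells.

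Marker lists were read against the ranges, of which the muscle list contains Actc1 and the mesothelial list contains Lhx9. The summed muscle markers had a median of 17060 CPM in Actc1-high, 1867 in Lhx9-detected and 2881 in Lhx9-undetected cells, and the ranges overlapped between 5618 and 7191 CPM. The summed mesothelial markers had a median of 139 CPM in Actc1-high, 2744 in Lhx9-detected and 244 in Lhx9-undetected cells. The summed mesenchymal markers had a median of 114 CPM (0 to 1344) in Actc1-high, 218 CPM (13.4 to 2424) in Lhx9-detected and 1443 CPM (93.1 to 4318) in Lhx9-undetected cells. Of these 8 markers, 7 were at least 2-fold lower in Lhx9-detected than in Lhx9-undetected cells, where 8.03% of all genes were. Of the 9 muscle markers detected in at least 10% of cells, 6 were also at least 2-fold lower there, Actc1 included, and 0 were higher. The Lhx9 comparison thus sets mesothelial-marker-rich cells against cells richer in both mesenchymal and muscle markers. The part of either in the junction gene values was not tested. Of 7 endothelial markers, Egfl7 was detected in 67 cells, Pecam1 in 62, Tek in 52 and Kdr in 8, and Cdh5, Tie1 and Emcn in 0. For each of those 3 genes a share of up to about 4.05% of cells, that is 3 of 74, could have been missed. This limit is a rule of thumb for the number of cells and not one of the exact intervals. The summed list had a median of 103 CPM in Actc1-high, 116 CPM in Lhx9-detected and 136 CPM in Lhx9-undetected cells. Of 8 hepatoblast and foregut markers, Alb was detected in 20 cells, up to 213 CPM, Ttr in 7 and Epcam in 2, and Afp, Hnf4a, Foxa1, Foxa2 and Shh in 0.

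The promoters of Dsp and Jup are shown because these are the desmosome genes for which a start-site sequence was at hand, and because both hold a T-box half-site. Whether Tbx18, through whose promoter the cells were selected, acts on either gene was not tested. RefSeq sequences (GRCm38.p6) from 250 bases before to 50 bases after the gene start matched 3 of the 10 genes, Ctnnd1, Jup and Dsp. Capitals mark the half-site AGGTGTG, searched on both strands.
Dsp, chr13:38151044-38151343, plus strand: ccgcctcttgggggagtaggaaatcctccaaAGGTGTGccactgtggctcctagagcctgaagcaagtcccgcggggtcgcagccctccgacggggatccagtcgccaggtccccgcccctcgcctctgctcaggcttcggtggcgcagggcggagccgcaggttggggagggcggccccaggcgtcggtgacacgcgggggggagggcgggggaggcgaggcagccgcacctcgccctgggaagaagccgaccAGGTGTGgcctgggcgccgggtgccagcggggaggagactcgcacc
Jup, chr11:100397741-100398040, minus strand: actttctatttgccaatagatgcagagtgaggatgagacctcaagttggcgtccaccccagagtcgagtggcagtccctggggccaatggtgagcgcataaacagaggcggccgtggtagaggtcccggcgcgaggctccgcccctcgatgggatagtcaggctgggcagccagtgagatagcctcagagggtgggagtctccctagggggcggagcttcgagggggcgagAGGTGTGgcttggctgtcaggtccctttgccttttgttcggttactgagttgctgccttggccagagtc

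The Dsp promoter held the half-site at 2 places, 219 bases before and 4 bases after the start. The second of these overlaps the one CAGGTG in the window, an E-box of the kind bound by Snail factors. The Jup promoter held 1, which begins 19 bases before the start. Of 32851 promoters of the same length, 5.84% held the half-site and 0.566% held it at 2 or more places. CAGGTG was found in 20.2%. The GC box GGGCGG, found in 35.7% of promoters, occurred 4 times in the Dsp window, whose GC content was 73%, and 2 times in the Jup window, at 60.7%. The promoters of Actc1 and Lhx9 and the first of 2 listed for Ctnnd1 held none of the 7 motifs searched. The other motifs were the GATA site GATAAG, the TEAD site GGAATG, the LIM-homeodomain site TAATTA and a MEF2 site. Of these, GATAAG was found 1 time, in the second Ctnnd1 promoter, against 7.44% of all promoters, and the others in none. These motifs were chosen after the sequences had been seen, and a match describes letters, not binding.

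Cdh1, the cadherin of most epithelia (E-cadherin; mouse chromosome 8, 106603351 to 106670246, GRCm38), was nearly absent. It was detected in 1 of 74 cells (1.35%, interval 0.0342% to 7.30%), and the other 73 cells had 0 counts. That cell, cell 17 of the Lhx9-detected range, had 29 counts or 30.4 CPM. It also had 307 CPM of Cdh3, against a median of 73.1 CPM in the other cells, and 59.8 CPM of Dsg2, against 7.25 CPM. Its Cdh2 was 155 CPM and its Krt8 532 CPM, both within the range of the other cells. It further held 1050 CPM of the haemoglobin gene Hba-a2 and 484 CPM of Hba-a1, above the highest other cells at 291 and 120 CPM, and 141 CPM of Alb, the albumin gene, against a median of 0 and a highest value of 213 CPM. The part of such transcripts in its Cdh1 counts was not tested. Epcam, another epithelial adhesion gene, had 0 counts there and was detected in 2 other cells.

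Cdh2, the cadherin of heart muscle and neural tissue (N-cadherin; chromosome 18, 16588877 to 16809246), was the most widely found of the 4 cadherins. It was detected in 73 of 74 cells (98.6%, 92.7% to 100%). Its level was 222 ± 134 CPM (SD, n = 74 cells). Per length, as counts per base of exon scaled to the same total in each cell (TPM), Cdh2 averaged 71.8 ± 44.0 TPM. Cdh3 averaged 52.7 ± 47.1 TPM, Cdh11 26.9 ± 29.6 TPM and Cdh1 0.232 ± 1.99 TPM on the same scale. The spreads of Cdh2 and Cdh3 overlapped widely.

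Cdh3, the placental cadherin found in many basal and simple epithelia (chromosome 8, 106510891 to 106557297), was detected in 62 of 74 cells (83.8%, 73.4% to 91.3%). Cdh11, a cadherin of mesenchyme (chromosome 8, 102632095 to 102785642), was detected in 53 (71.6%, 59.9% to 81.5%). All of Cdh2, Cdh3 and Cdh11 were detected together in 45 cells, Cdh2 with Cdh3 alone in 16, Cdh2 with Cdh11 alone in 7 and Cdh2 alone in 5. So most cells held a mixture rather than a single cadherin. In the remaining cell, cell 2, Cdh3 and Cdh11 were detected without Cdh2, which stood at 0.667 CPM. The levels of the 3 cadherins were hardly related across the 74 cells, with Spearman rho of -0.12 for Cdh2 and Cdh3, -0.10 for Cdh2 and Cdh11 and 0.16 for Cdh3 and Cdh11. These and all later correlations are descriptions over cells of 1 sample that share their library chemistry and differ in depth.

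Per length, Cdh2 was the highest of the 4 cadherins in 41 of 74 cells, Cdh3 in 23, Cdh11 in 10 and Cdh1 in 0. This count rests on the length used: with the longest transcript in place of all exons Cdh2 led in 53 cells, Cdh3 in 10 and Cdh11 in 11. By range, Cdh2 led in 14 of 18 Actc1-high, 16 of 33 Lhx9-detected and 11 of 23 Lhx9-undetected cells. Among 9 cadherins that also included Cdh4, Cdh6, Cdh8, Cdh10 and Cdh24, Cdh2 made up a median of 61.8% of the summed TPM in Actc1-high, 34.5% in Lhx9-detected and 45.4% in Lhx9-undetected cells. The share overlapped across the ranges, running from 24.2% to 98.6% in Actc1-high, 0.205% to 79.3% in Lhx9-detected and 3.28% to 72.3% in Lhx9-undetected cells. The summed cadherin level was 154 ± 99.5 TPM in Actc1-high, 160 ± 47.8 TPM in Lhx9-detected and 193 ± 76.5 TPM in Lhx9-undetected cells, within the spread over cells.

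**Figure D1:**
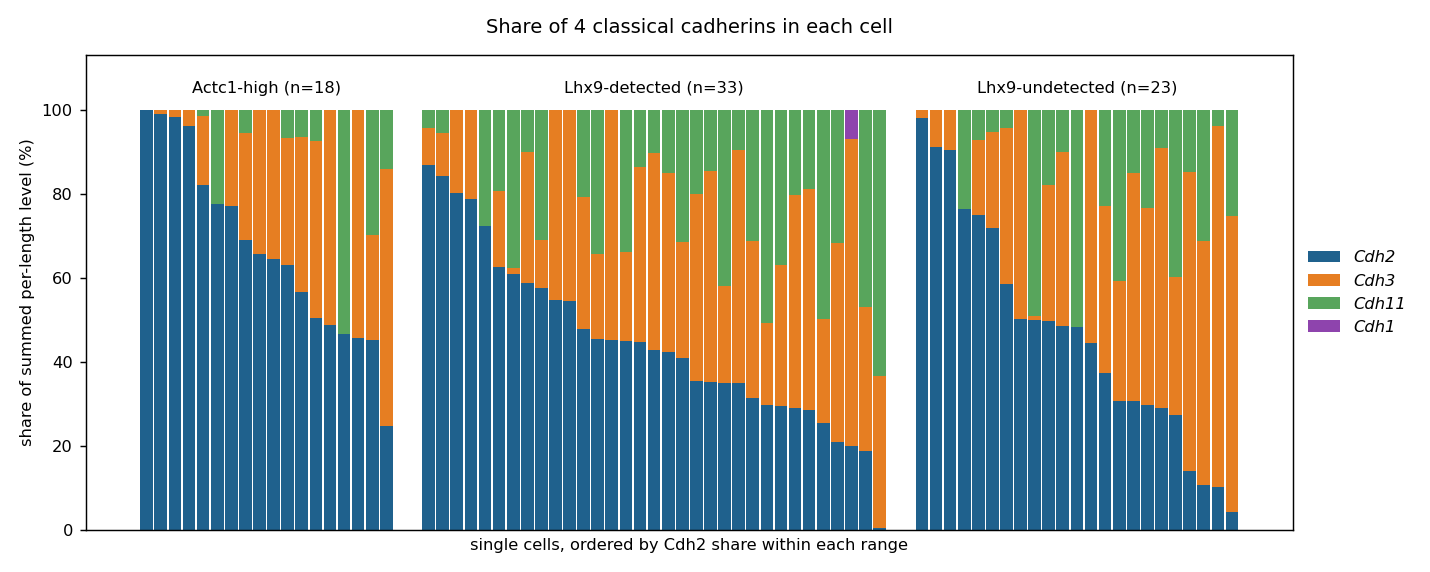
Share of Cdh2, Cdh3, Cdh11 and Cdh1 in their summed per-length level (percent, vertical axis) in each of 74 cells, one bar per cell, ordered by Cdh2 share within each range. Cdh2 is the highest of the 4 in 14 of 18 Actc1-high, 16 of 33 Lhx9-detected and 11 of 23 Lhx9-undetected bars, and Cdh1 shows in 1 bar.

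The level of Cdh2 itself differed little between the ranges. It ran from 99.0 to 931 CPM with a median of 212 in Actc1-high, from 0.667 to 401 with a median of 188 in Lhx9-detected, and from 25.2 to 570 with a median of 213 in Lhx9-undetected cells. The highest value, 931 CPM, was in cell 59, whose Jup was 0. The ranges overlapped almost wholly, and 12 of 18 Actc1-high cells lay above the median of the other cells.

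Cdh3 ran from 0 to 216 CPM with a median of 54.5 in Actc1-high, from 0 to 307 with a median of 72.5 in Lhx9-detected, and from 0 to 406 with a median of 118 in Lhx9-undetected cells. By Actc1 level, its medians were 77.4 CPM in the 45 cells under 100 CPM of Actc1, 97.5 CPM in the 11 cells from 100 to 1000 CPM, 96.6 CPM in the 9 cells from 1000 to 5000 CPM and 21.8 CPM in the 9 cells at 5000 CPM or more. In the last band it was detected in 5 of 9 cells. Within the 18 Actc1-high cells the rho of Cdh3 with Actc1 was -0.52, a value that 4.01% of genes had or passed in that small set.

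Of the 4 cadherins chosen, Cdh11 was at least 2-fold lower in Actc1-high than in other cells, and Cdh3 was lower by less, at 62.8 ± 64.6 CPM in Actc1-high and 95.4 ± 80.3 CPM in other cells. The mean of Cdh11 was 46.9 ± 76.9 CPM in Actc1-high and 105 ± 103 CPM in the 56 other cells (SD over cells), 0.450 times as much and -1.15 on the log2 scale with 1 CPM added. It was detected in 9 of 18 Actc1-high, 26 of 33 Lhx9-detected and 18 of 23 Lhx9-undetected cells. With every cell thinned to 354002 counts, it was detected in 6 of 16 Actc1-high, 23 of 28 Lhx9-detected and 17 of 22 Lhx9-undetected cells. Its median was 2.11 CPM in Actc1-high, 77.4 in Lhx9-detected and 80.2 in Lhx9-undetected cells, though single Actc1-high cells reached 238 CPM, and so the ranges overlapped. The rho of Cdh11 with Actc1 was -0.40 over 74 cells and -0.296 within the 56 cells under 1000 CPM of Actc1, which 2.54% of genes had or passed.

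Other cadherins were sparse. Of 19 further cadherins on a fixed list, 9 were detected in no cell, among them Cdh5 of endothelium, and 6 passed a filter of detection in at least 10% of cells. Per length the leading ones were Cdh24, Cdh6 and Cdh13. Cdh13, an anchored cadherin without a cytoplasmic tail, averaged 33.3 ± 51.2 CPM in Actc1-high, 4.16 ± 15.5 CPM in Lhx9-detected and 30.0 ± 42.4 CPM in Lhx9-undetected cells. Cdh10 ran the other way, with 0.886 ± 1.76 CPM in Actc1-high, 10.7 ± 17.0 CPM in Lhx9-detected and 4.37 ± 15.8 CPM in Lhx9-undetected cells. In all these cases the SD exceeded the mean. Of 20 protocadherins and giant cadherins, 11 passed the filter. In Lhx9-detected against Lhx9-undetected cells 3 of these were at least 2-fold higher, Pcdh1, Pcdh9 and Celsr1, where 5.34% of all genes were. Another 5 were at least 2-fold lower, Pcdh7, Pcdh11x, Pcdh17, Fat4 and Dchs1, where 8.03% were.

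**Figure D2:**
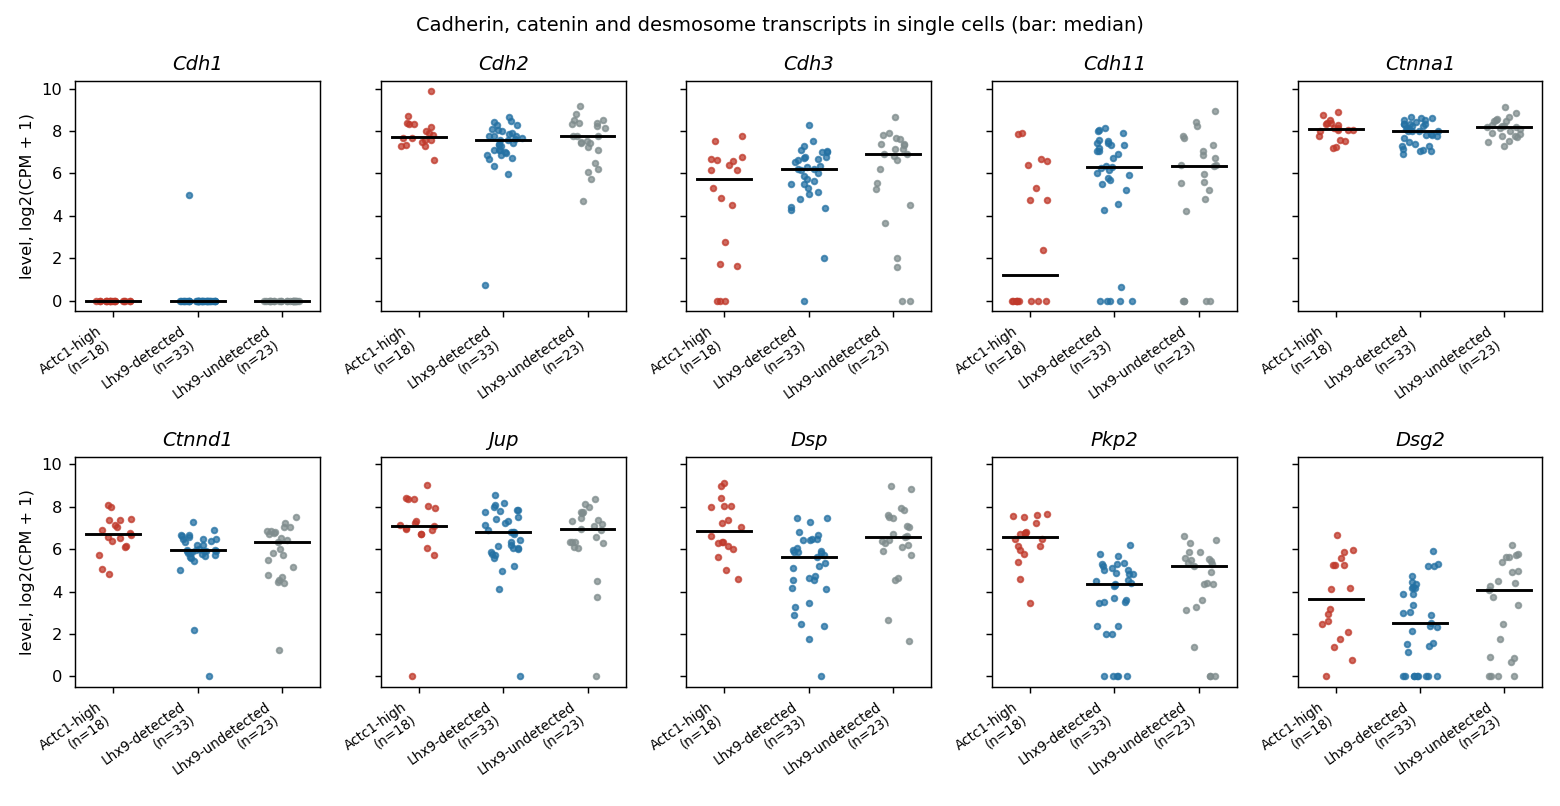
Level of each of the 10 genes, as log2(CPM + 1), in 18 Actc1-high, 33 Lhx9-detected and 23 Lhx9-undetected cells. Each point is 1 cell and each bar a median. For Pkp2, 17 of 18 Actc1-high cells lie above the median of the other cells and 9 above their highest value. Dsp is low in many Lhx9-detected cells.

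The catenins that carry cadherin tails were found in nearly every cell. Ctnna1, the alpha-catenin that binds actin (chromosome 18, 35118859 to 35254779), was detected in all 74 cells, from 120 to 565 CPM, and had the smallest relative spread of the 10 genes, at 274 ± 89.9 CPM. Its mean was 280 ± 88.1 CPM in Actc1-high, 255 ± 84.1 CPM in Lhx9-detected and 297 ± 96.8 CPM in Lhx9-undetected cells, within the spread. Ctnnb1, the beta-catenin, was detected in all 74 cells at 507 ± 155 CPM. Per length, Ctnna1 averaged 112 ± 37.7 TPM, above the 71.8 TPM of Cdh2.

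Ctnnd1, the delta-catenin that holds cadherins at the membrane (chromosome 2, 84600071 to 84650765), was detected in 71 cells. It ran from 27.7 to 272 CPM with a median of 105 in Actc1-high, from 0 to 154 with a median of 60.4 in Lhx9-detected, and from 1.39 to 185 with a median of 80.7 in Lhx9-undetected cells. Of the Actc1-high cells, 15 of 18 lay above the median of the other cells, 61.7 CPM. The ratio of means was 1.67, under 2-fold. Ctnnd1 shares exon bases on the same strand with Gm28635, which was detected in 7 cells at a mean of 2.81 CPM, and Ctnna1 with Lrrtm2 on the opposite strand, detected in 6 cells at 1.26 CPM, so reads could be split between these pairs. Whether strand was used in counting is not given in the labels.

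Among other catenins, Ctnna3, the alpha-catenin of heart muscle, was detected in 6 cells, and these were 6 of the 18 Actc1-high cells. Its highest value there was 30.6 CPM and in the other cells 6.69 CPM. Ctnna2, the neural alpha-catenin, was detected in 0 of 18 Actc1-high, 9 of 33 Lhx9-detected and 1 of 23 Lhx9-undetected cells. Both were low beside Ctnna1, which averaged 112 TPM per length, against 2.55 TPM for Ctnna3 in Actc1-high cells and 2.46 TPM for Ctnna2 in Lhx9-detected cells.

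Desmosome transcripts were present in most cells. Jup was detected in 71 of 74 cells, Dsp in 68, Pkp2 in 61 and Dsg2 in 39, and Dsc2, the desmocollin partner of Dsg2, in 64. Jup, Pkp2 and Dsp were detected together in 57 of 74 cells. All 5 were detected in 25 of 74 (33.8%, 23.2% to 45.7%), at least 4 in 60, and no cell had fewer than 2. By range all 5 were found in 9 of 18 Actc1-high, 10 of 33 Lhx9-detected and 6 of 23 Lhx9-undetected cells, and after thinning in 6 of 16 Actc1-high, 4 of 28 Lhx9-detected and 4 of 22 Lhx9-undetected cells. The count depends on the call, since with 1 count as detection 44 of 74 cells had all 5.

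Of 11 other desmosome genes on a fixed list, 6 were detected in no cell: Dsg1b, Dsg1c, Dsg4, Dsc1, Dsc3 and Ppl. These are mainly genes of stratified skin. Only Dsc2 and Perp passed the filter, while 11510 of all 30323 identifiers passed it and were compared. Of the other plakophilins, Pkp4 was detected in 38 cells, Pkp3 in 10 and Pkp1 in 1. Dsg2 and Dsc2 were therefore the main desmosomal cadherins detected, and both were detected in 32 cells, Dsg2 without Dsc2 in 7, Dsc2 without Dsg2 in 32 and neither in 3.

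Pkp2, the plakophilin of heart desmosomes (chromosome 16, 16213318 to 16272712), was the desmosome gene with the largest ratio of Actc1-high to other cells, though its level there was below those of Jup and Dsp. It ran from 9.98 to 199 CPM with a median of 95.6 in Actc1-high, from 0 to 73.2 with a median of 19.6 in Lhx9-detected, and from 0 to 97.4 with a median of 35.5 in Lhx9-undetected cells. The ranges overlapped, but 17 of 18 Actc1-high cells lay above the median of the other cells and 9 lay above their highest value. Its mean was 103 ± 58.7 CPM in Actc1-high and 26.5 ± 23.3 CPM in the 56 other cells, a ratio of 3.77. Of 11510 genes that passed the filter, 1.83% had a ratio as high.

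Dsp, the desmoplakin that ties desmosomes to intermediate filaments (chromosome 13, 38151294 to 38198577), had the lowest ratio of Lhx9-detected to Lhx9-undetected means of any member. It ran from 22.9 to 549 CPM with a median of 114 in Actc1-high, from 0 to 175 with a median of 49.2 in Lhx9-detected, and from 2.16 to 510 with a median of 93.6 in Lhx9-undetected cells. The Lhx9-detected cells were low, and 28 of 33 lay below the median of the Lhx9-undetected cells. This position was not particular to Dsp, since 27 of 33 lay below that median for Pkp2 and 26 of 33 for Cdh3. The means were 176 ± 155 CPM in Actc1-high, 54.3 ± 47.9 CPM in Lhx9-detected and 135 ± 129 CPM in Lhx9-undetected cells. The ratio of Lhx9-detected to Lhx9-undetected means was 0.406, or -1.30 on the log2 scale, a ratio that 4.73% of genes had or passed.

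In Actc1-high against all other cells, 2 of the 9 members that passed the filter were at least 2-fold higher, Pkp2 and Dsp, where 5.93% of all 11510 genes compared were. Dsp stood on the threshold, at 176 ± 155 CPM in Actc1-high and 87.6 ± 97.9 CPM in other cells, a log2 ratio of 1.00, and fell short of 2-fold under 4 of the alternatives tried, at 0.78 to 0.94. Only 1 member, Cdh11, was at least 2-fold lower, where 8.58% of genes were. In Lhx9-detected against Lhx9-undetected cells, 0 of 9 were at least 2-fold higher, where 5.34% of genes were, and 1, Dsp, was lower, where 8.03% were. With medians in place of means the gene past 2-fold changed, since Dsp stood at -0.91 and Dsg2 at -1.54. The median log2 ratio of the 9 was 0.48 in the first comparison and -0.26 in the second, and over all genes -0.10 and -0.06. Cdh1 failed the filter. Both the Lhx9-detected and the Lhx9-undetected cells enter both comparisons, and so the 2 are not independent.

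Jup, the plakoglobin shared by both junction types (chromosome 11, 100368958 to 100397763), differed less. It ran from 0 to 518 CPM with a median of 137 in Actc1-high, from 0 to 372 with a median of 110 in Lhx9-detected, and from 0 to 328 with a median of 123 in Lhx9-undetected cells. These values overlapped almost wholly. By Actc1 level, the median was 112 CPM under 100 CPM of Actc1, 112 CPM from 100 to 1000 CPM, 137 CPM from 1000 to 5000 CPM and 245 CPM at 5000 CPM or more.

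Dsg2, the desmoglein of simple epithelia and heart (chromosome 18, 20558074 to 20604521), was the lowest of the desmosome genes. It ran from 0 to 102 CPM with a median of 12.4 in Actc1-high, from 0 to 59.8 with a median of 4.73 in Lhx9-detected, and from 0 to 72.3 with a median of 15.6 in Lhx9-undetected cells. It was detected in 11 of 18 Actc1-high, 14 of 33 Lhx9-detected and 14 of 23 Lhx9-undetected cells. After thinning it was detected in 8 of 16 Actc1-high, 10 of 28 Lhx9-detected and 13 of 22 Lhx9-undetected cells. The ratio of Lhx9-detected to Lhx9-undetected means was -0.86 on the log2 scale, short of 2-fold, and passed 2-fold when Lhx9-detected was set at 50 CPM or more (-1.18).

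Dsc2, which is not one of the 10 but completes the desmosome, had a pattern of its own. It ran from 0 to 210 CPM with a median of 49.3 in Actc1-high, from 0 to 236 with a median of 54.1 in Lhx9-detected, and from 0 to 348 with a median of 17.9 in Lhx9-undetected cells. It was detected in 16 of 18 Actc1-high, 32 of 33 Lhx9-detected and 16 of 23 Lhx9-undetected cells, and after thinning in 12 of 16 Actc1-high, 25 of 28 Lhx9-detected and 12 of 22 Lhx9-undetected cells. Within the 18 Actc1-high cells its rho with Actc1 was 0.73, a value that 0.524% of genes reached there. Its median was 42.8 CPM under 100 CPM of Actc1, 27.0 CPM from 100 to 1000, 17.3 CPM from 1000 to 5000 and 137 CPM at 5000 or more. So within the same cells Dsc2 and Pkp2 differed in where they were high, since Pkp2 had medians of 20.5, 29.4, 89.0 and 102 CPM over these 4 bands.

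**Figure D3:**
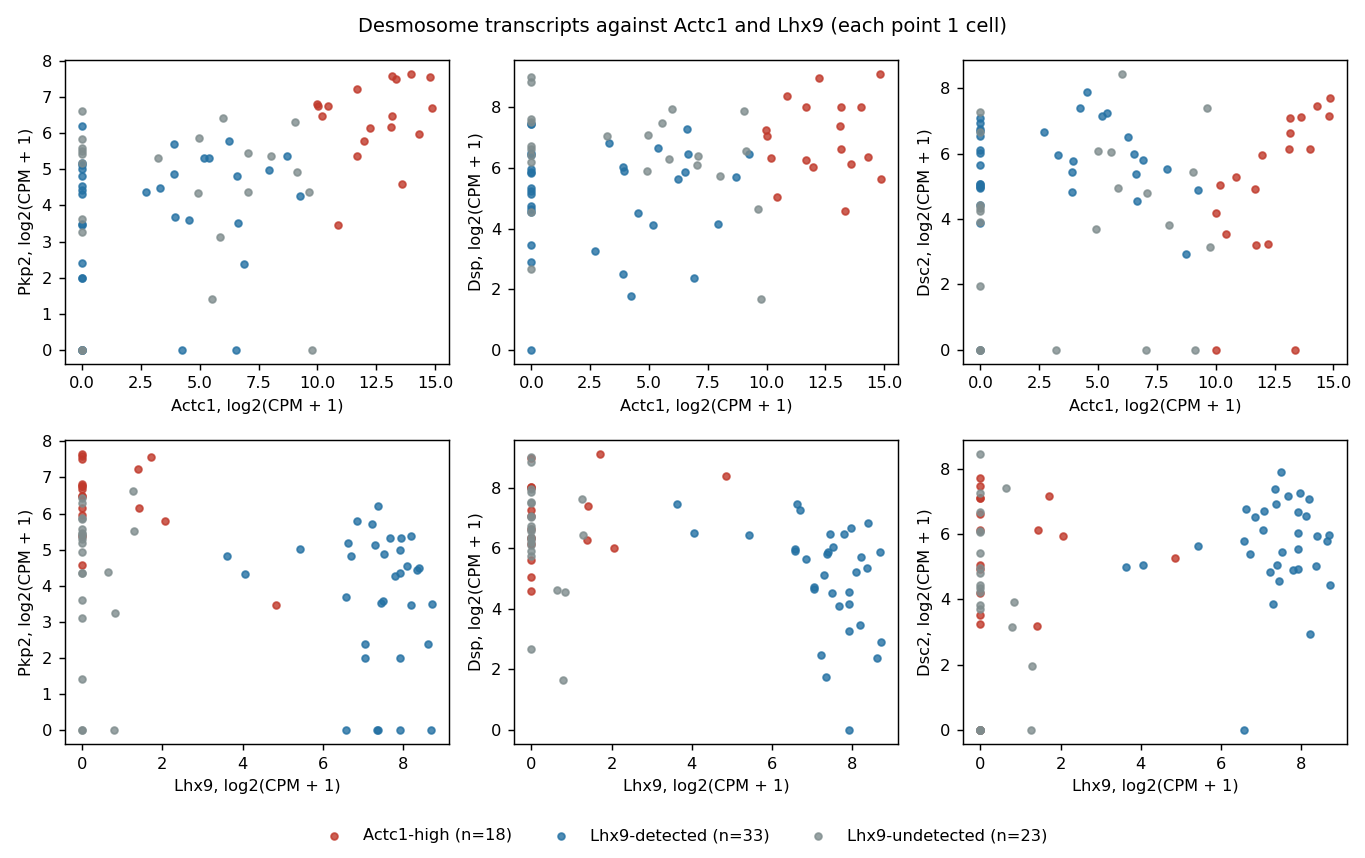
Pkp2, Dsp and Dsc2 (vertical axes, log2(CPM + 1)) against Actc1 in the upper row and Lhx9 in the lower row (horizontal axes, same scale), 1 point per cell, coloured by range. Pkp2 is high in most of the 18 Actc1-high cells, Dsp is lower where Lhx9 is high, and Dsc2 is high in most of the Actc1-high cells with the most Actc1 and in many cells with little or none.

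Over all 74 cells, rho with Actc1 was at least 0.3 for 2 of the 9 members, Pkp2 at 0.51 and Ctnnd1 at 0.35, where 4.11% of genes were. It was at most -0.3 for 1, Cdh11, where 5.63% of genes were. Within the 56 cells under 1000 CPM of Actc1, 0 members reached 0.3 (1.63% of genes) and 0 reached -0.3 (2.35%), though Cdh11 came close at -0.296. Pkp2 stood at 0.11 and Dsp at -0.03. Within the 18 Actc1-high cells Pkp2 stood at 0.16 and Dsp at -0.02, where 12.3% of genes were at 0.3 or above. The rho of the 9 members with total counts lay between -0.17 for Dsg2 and 0.16 for Ctnnd1.

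With Lhx9, rho was at least 0.3 for 0 of 9 members, where 7.61% of genes were, and at most -0.3 for 2, Dsp at -0.50 and Pkp2 at -0.44, where 5.17% were. Within the 56 cells with less Actc1, 0 members were at 0.3 or above (7.91% of genes) and 1, Dsp, was at -0.3 or below (6.25%). Dsp stood there at -0.52, a value that 0.747% of genes had or passed, and inside the 33 Lhx9-detected cells alone, at -0.39, where 5.31% of genes were at -0.3 or below. For Pkp2 it was -0.25 in the 56 cells and -0.15 in the 33. Ctnnd1 had a rho with Lhx9 of 0.41 inside the 33 Lhx9-detected cells, where 7.28% of genes were at 0.3 or above, but of -0.17 over all 74.

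Dsp and Pkp2 were related to each other at a rho of 0.46 over 74 cells. By range this was -0.02 in Actc1-high, 0.27 in Lhx9-detected and 0.61 in Lhx9-undetected cells. Dsp was also related to Des, the muscle intermediate filament desmin, at 0.55, and by range at 0.54 in Actc1-high, 0.12 in Lhx9-detected and 0.55 in Lhx9-undetected cells. With Krt18, a simple epithelial keratin, the rho over 74 cells was -0.30 for Dsp and -0.35 for Pkp2. Within ranges it was -0.12 in Actc1-high, -0.07 in Lhx9-detected and 0.07 in Lhx9-undetected cells for Dsp. For Pkp2 it was -0.55 in Actc1-high, 0.09 in Lhx9-detected and -0.07 in Lhx9-undetected cells, so neither gene kept one sign. Cdh3 was related to Krt8, the partner keratin of Krt18, at 0.41, and by range at 0.52 in Actc1-high, 0.40 in Lhx9-detected and 0.42 in Lhx9-undetected cells, so the relation to Krt8 was alike in size in all 3 ranges. With Krt18 the rho of Cdh3 was weaker, at 0.22 over 74 cells. By range it was 0.54 in Actc1-high, 0.10 in Lhx9-detected and 0.31 in Lhx9-undetected cells. With Krt8 the rho over 74 cells was -0.20 for Dsp and -0.15 for Pkp2, also weaker than with Krt18.

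**Figure D4:**
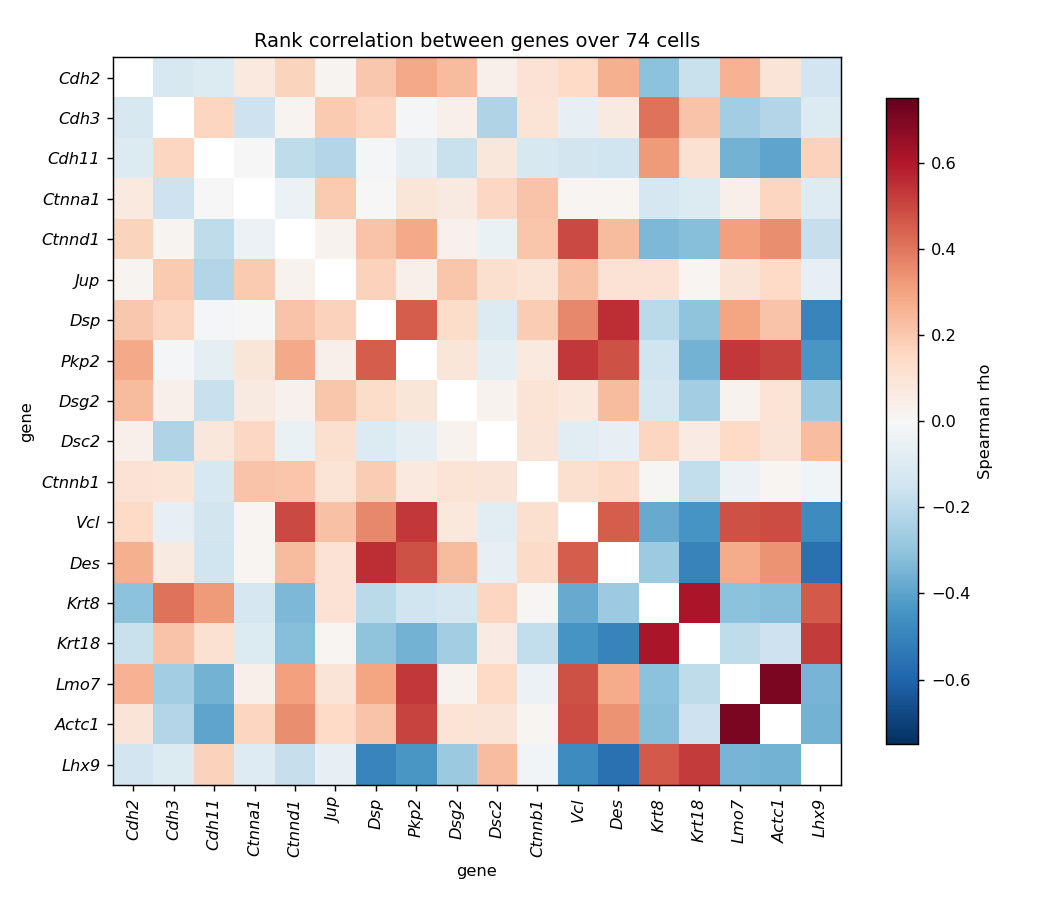
Spearman rho (colour) over 74 cells between pairs of 18 genes, with the diagonal left blank. Dsp and Pkp2 are red against each other and Des (0.46, 0.55 and 0.48) and blue against Lhx9 (-0.50 and -0.44), while Cdh3 is red against Krt8 (0.41) and paler against Krt18 (0.22).

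Intermediate filament genes, which include the cytoplasmic filaments that desmosomes hold and the nuclear lamin Lmna, were read next. Of 10, 9 passed the filter. In Lhx9-detected against Lhx9-undetected cells 4 were at least 2-fold higher, Krt18, Krt19, Lmna and Synm, where 5.34% of genes were, and 1 was lower, Des, where 8.03% were. Vim, Krt7, Krt8 and Nes did not pass 2-fold, with log2 ratios of -0.02, -0.17, 0.85 and -0.78. Krt18 averaged 303 ± 222 CPM in Lhx9-detected and 97.4 ± 103 CPM in Lhx9-undetected cells. Des averaged 73.7 ± 80.0 CPM in Lhx9-detected and 283 ± 183 CPM in Lhx9-undetected cells. In Actc1-high cells, Krt18 averaged 87.3 ± 107 CPM and Des 309 ± 332 CPM. Krt7, another simple epithelial keratin, and Krt18 were at least 2-fold lower in Actc1-high than in other cells, 2 of 9 where 8.58% of all genes were.

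The list read for the intercalated disc also held genes placed elsewhere in muscle cells, such as Ldb3 of the Z-disc and the junctophilin Jph2. Of its 9 genes passing the filter, 4 were at least 2-fold higher in Actc1-high than in other cells, Lmo7, Ldb3, Jph2 and Sorbs2. Another 2 were at least 2-fold lower, Cxadr and Gja1. Over all genes 5.93% were higher and 8.58% lower. Lmo7, a LIM protein at junctions, averaged 111 ± 92.7 CPM in Actc1-high and 11.1 ± 31.8 CPM in other cells. Its median was 0 CPM under 100 CPM of Actc1, 5.51 from 100 to 1000, 51.0 from 1000 to 5000 and 166 CPM at 5000 or more. Gja1, the gap junction connexin, averaged 55.8 ± 76.8 CPM in Actc1-high and 150 ± 151 CPM in other cells, within the spread. Cxadr, an adhesion receptor of the disc, averaged 19.1 ± 13.8 CPM in Actc1-high and 43.8 ± 31.8 CPM in other cells.

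Of 13 nectins and actin linkers, 11 passed the filter, and Vcl and Ablim1 were at least 2-fold higher in Actc1-high than in other cells, 2 of 11 where 5.93% of all genes were. Both were also at least 2-fold lower in Lhx9-detected than in Lhx9-undetected cells, where 8.03% were. Vcl, the vinculin that strengthens alpha-catenin's hold on actin, averaged 136 ± 101 CPM in Actc1-high, 29.4 ± 32.2 CPM in Lhx9-detected and 73.4 ± 65.4 CPM in Lhx9-undetected cells. Its rho over 74 cells was 0.53 with Pkp2 and 0.50 with Ctnnd1. Ablim1, an actin-binding LIM protein, averaged 73.1 ± 47.2 CPM in Actc1-high, 6.18 ± 14.5 CPM in Lhx9-detected and 35.0 ± 40.1 CPM in Lhx9-undetected cells. The nectin of highest level per length was Nectin2, found in 73 of 74 cells.

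Of 21 tight junction genes, 8 were detected in no cell, among them Ocln and Tjp3. Another 6 were detected in at least as many cells as lacked them. Those of highest level per length included F11r and Jam3. The filter was passed by 7 of the 21, where 11510 of all 30323 identifiers passed it. Of these 7, 1 gene, Cgnl1, a cingulin-like junction protein, was at least 2-fold higher in Lhx9-detected than in Lhx9-undetected cells, where 5.34% of all genes were. Cgnl1 averaged 205 ± 106 CPM in Lhx9-detected and 91.0 ± 68.2 CPM in Lhx9-undetected cells, and 102 ± 73.6 CPM in Actc1-high cells. Its rho with Lhx9 was 0.65 over 74 cells and 0.34 inside the 33 Lhx9-detected cells. The sign was opposite to that of Dsp, at -0.50 over the same 74 cells.

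**Figure D5:**
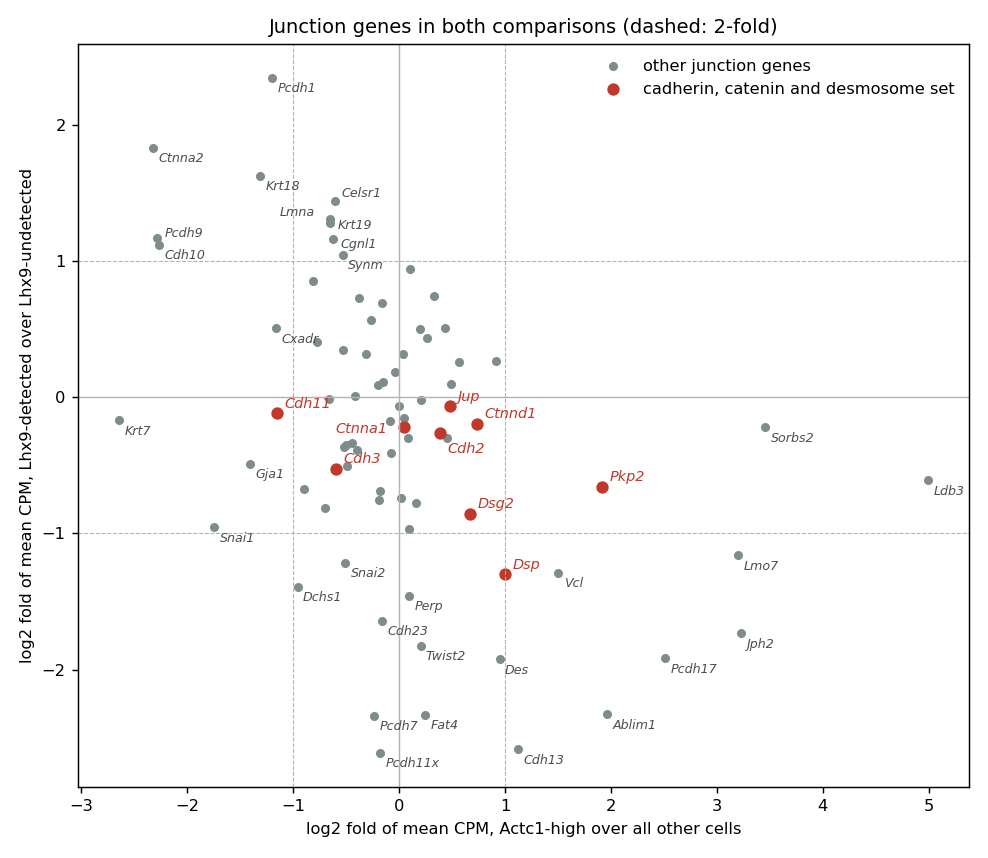
Log2 ratio of mean CPM (1 CPM added) in Actc1-high over all other cells (horizontal axis) and in Lhx9-detected over Lhx9-undetected cells (vertical axis) for the 9 genes that passed the filter (red) and other junction, filament and repressor genes (grey). Dashed lines mark 2-fold. Dsp lies at 1.00 and -1.30, beside Vcl at 1.50 and -1.29, and Pkp2 at 1.91 and -0.66.

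Repressors known to switch Cdh1 off were detected in these Cdh1-poor cells. All 8 on the list passed the filter and 6 were detected in at least 50% of cells. Those of highest level per length were Tcf3, Snai2 and Twist1. In Actc1-high against other cells 1 of 8 was at least 2-fold lower, where 8.58% of all genes were. This was Snai1, at 1.46 ± 2.76 CPM in Actc1-high and 7.25 ± 12.0 CPM in other cells. In Lhx9-detected against Lhx9-undetected cells 2 of 8 were lower, Snai2 and Twist2, where 8.03% were. Snai2 averaged 34.0 ± 34.2 CPM in Lhx9-detected and 80.3 ± 71.4 CPM in Lhx9-undetected cells. Since Cdh1 was at 0 in 73 cells, no relation of these genes to Cdh1 could be read.

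The genes most like each member were ranked by Spearman rho over 74 cells among 8935 genes with a mean of at least 10 CPM. For Pkp2 they were Spon1 (0.64), Ryr2 (0.64), Myl4 (0.64), Tpm1 (0.60) and Ttn (0.60), of which Ryr2 encodes the calcium release channel of heart muscle and Myl4, Tpm1 and Ttn sarcomere proteins. For Dsp they were Des (0.55), Pdlim7 (0.54), Psme1 (0.52), Lhfp (0.51) and Dstn (0.50). For Ctnnd1 they were Irak2 (0.53), Myl9 (0.51), Vcl (0.50), Cap2 (0.50) and Ablim1 (0.46). For Cdh3 they were Taf11 (0.50), Igfbp3 (0.49), Tiam2 (0.48), Tnc (0.46) and Ece1 (0.45). The share of genes at 0.3 or above was 4.30% for Pkp2, 2.78% for Dsp, 2.26% for Cdh3, 1.70% for Ctnnd1 and 0.504% for Cdh2, whose most like gene reached 0.41. Pkp2 was thus the one of these 5 with the most genes in step with it.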

How the data were processed

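RNA was measured in 74 single cells after SMART-Seq amplification. Per the labels and the submitters' processing notes, the authors deposited estimated counts for each gene, made with kallisto (no version stated). The notes list the build hg38, but all identifiers in the table are mouse Ensembl ones. All values are whole, and the rounding and the step from transcripts to genes are not given in the sources used here. Of 30323 identifiers, 29936 had a symbol, position and exon length in GENCODE M21 (GRCm38). The other 387 held 0.346% of counts. No cell was left out, no 2 cells were identical, and no doublet caller was run on the singly sorted cells. A median of 7859 genes per cell was detected.

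The estimated counts were scaled to CPM, and for levels between genes to TPM by the union of exons. Ratios are of mean CPM with 1 CPM added, called at 2-fold. The genes compared were the 11510 detected in at least 10% of cells. Genes were named by rule: the 10 genes, Actc1 and Lhx9, and of each list the 3 of highest level per length, the least often detected and those past 2-fold, of which a selection is printed, and the 5 genes most like each member. Other genes named for their values were chosen after these were seen. Members and lists were chosen with earlier results of these data known. For shares of cells, each cell was also thinned at random to 354002 counts, and 8 cells with fewer counts dropped out (2 Actc1-high, 5 Lhx9-detected and 1 Lhx9-undetected). Reads without molecular identifiers are not independent molecules, so intervals cover counting only. Alternatives changed the detection count, the pseudocount, the summary, the scaling (scran pooled size factors), the length and the bounds of the ranges. The computations were tested on simulated data. The tools were scran 1.30.0 in R 4.3.3, and SciPy 1.17.1, pandas 2.3.3, numpy 2.4.6 and matplotlib 3.10.9 in Python 3.11.15.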

Additional observations from a re-analysis of the deposited data

How the results depend on the processing

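Of the alternatives tried, none turned a called direction round. The count of 2 members at least 2-fold higher in Actc1-high than in other cells became 1, with Pkp2 left, when 10 CPM was added (1), medians replaced means (1), the highest cell of each range was left out (1) or Actc1-high began at 300 CPM (1). Dsp then stood at 0.93, 0.91, 0.94 and 0.78 on the log2 scale. In Lhx9-detected against Lhx9-undetected cells, 2 members, Dsp and Dsg2, were at least 2-fold lower when Lhx9-detected meant 50 CPM or more. With medians, Dsp stood at -0.91 there and Dsg2 at -1.54. The 2 members with a rho of at least 0.3 with Actc1 became 1 by Pearson r on log2 values, with Ctnnd1 at 0.25, and 0 within the cells under 1000 CPM of Actc1. In those cells the 1 member at most -0.3 with Actc1 became 0, and the 2 at most -0.3 with Lhx9 became 1. After thinning, Dsg2 joined Dsp and Pkp2 with a rho of -0.31 with Lhx9. The cells with all 5 desmosome genes numbered 44 with 1 count as detection. Across all settings, 41 other summary values and 201 single-gene values stayed on the same side of their threshold or within the spread. Of the remaining single-gene values, 5 moved, 10 grew weaker and 3 grew stronger. Among the moved ones, Cdh1 was detected in 0% of cells after thinning, against 1.35%. With 1 count as detection, Dsg2 rose from 52.7% to 81.1% of cells and Cdh3 from 83.8% to 91.9%. The cause of these shifts was not tested. Counts of 0 in low genes such as Dsg2 and Cdh11 are limited by depth. No paired analysis was possible because the labels give 1 group and no embryo.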
